A study of Mus musculus with 4 samples.

Results

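Cytosolic ribosomal protein genes were taken as the rows of the deposited feature tables whose symbols name a protein of the large subunit (Rpl), the small subunit (Rps and Rpsa) or the ribosomal stalk (Rplp). The name rule found 80 members among 32285 genes: 47 Rpl genes, 30 Rps genes with Rpsa, and 3 Rplp genes. Pseudogenes and the Rps6k kinases were left out. The rule passes over ribosomal proteins with other names, and Fau, Rack1 and Rps3a1 are among those not counted.

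The libraries were single-cell RNA libraries of the rostral neocortex of E15.5 mouse embryos, made with a 10x Genomics 3′ kit. The i4F-Nes group held 2 libraries of genotype Nestin-Cre;i4F;ROSA-STOP-rtTA, in which Nestin-Cre, active in the neural lineage, removes a stop in front of the rtTA transactivator so that doxycycline can induce the Yamanaka reprogramming factors. The CTR group held 2 libraries from littermates of genotype i4F;ROSA-STOP-rtTA, which carry the inducible cassette without Cre. Dams of both groups drank doxycycline at 0.2 mg/ml for 4 days (E10.5 to E14.5), and tissue was taken 1 day after it ended. The labels do not say how many embryos a library holds, so p-values measure the spread between libraries only.

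A eukaryotic ribosome joins a small 40S subunit, which reads the mRNA, to a large 60S subunit, which forms the peptide bond. Most ribosomal proteins are present in a single copy per ribosome, and most of their mRNAs begin with a 5′ terminal oligopyrimidine (TOP) tract that lets mTOR signalling and the RNA-binding protein Larp1 set their translation together. In the embryonic cortex radial glia divide, intermediate progenitors arise from them, and both give rise to neurons that no longer divide.

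All 80 members matched a gene of GENCODE M21 (GRCm38) by identifier and symbol. They lay on 19 chromosomes, with 14 on chromosome 7 and 4 on the X chromosome (Rpl39, Rpl10, Rps4x and Rpl36a). RefSeq's promoter table (GRCm38.p6) held 71 windows for 60 members, each 250 bases before to 50 bases after an annotated start. The pentamer CTTTC lay on the gene's strand within 20 bases of the start in 26.8% of the members' windows, against 5.49% of the 32851 windows of all genes. The motif CCGGAAG, searched on both strands of the 300 bases, was in 35.2% of the members' windows and 8.86% of all. TATAAA, searched the same way, was in 8.45% of the members' windows and 13.6% of all. These matches describe letters in a window and do not show a factor's binding.

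The 6 windows below belong to members at either end of the comparisons that follow. Rpl14 and Rps24 were among the members lowest in neurons relative to radial glia, Rps7 and Rpl38 were the only members with a positive difference there, and Rpl10a and Rps2 stood high in a cell group found in i4F-Nes libraries. Each runs 5′ to 3′ on the gene's strand from 30 bases before to 20 bases after the annotated start, and capitals mark the longest run of pyrimidines that overlaps the 15 bases on either side of the start. The windows lie at chr9:120571487-120571536 (Rpl14, plus strand), chr14:24490648-24490697 (Rps24, plus), chr12:28635934-28635983 (Rps7, minus), chr11:114668550-114668599 (Rpl38, plus), chr17:28328441-28328490 (Rpl10a, plus) and chr17:24720033-24720082 (Rps2, plus).
Rpl14: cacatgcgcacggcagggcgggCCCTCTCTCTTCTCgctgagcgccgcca
Rps24: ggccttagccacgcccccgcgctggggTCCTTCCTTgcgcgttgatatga
Rps7: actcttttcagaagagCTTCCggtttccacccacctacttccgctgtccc
Rpl38: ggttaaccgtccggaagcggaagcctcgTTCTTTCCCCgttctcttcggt
Rpl10a: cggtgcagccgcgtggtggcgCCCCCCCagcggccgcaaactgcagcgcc
Rps2: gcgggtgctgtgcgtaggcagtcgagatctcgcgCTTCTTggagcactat
The run was 14 bases in Rpl14, 10 in Rpl38 and 9 in Rps24, against 5 in Rps7. Its median length was 7 bases over the members' windows and 5 bases over all windows. Rps24 and Rpl10a have a second window each, with runs of 7 and 4 bases, not shown.

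After filters and removal of likely doublets, 7498 and 6407 cells were kept from the 2 i4F-Nes libraries, and 6046 and 6690 from the 2 CTR libraries, each pair in the order of replicate 1 and replicate 2. Their median depth was 15141 and 11342 unique molecular identifiers (UMIs, counted RNA molecules) per cell in i4F-Nes and 15135 and 11617 in CTR. CTR replicate 1 had 0.0103 CPM of Xist (a gene's UMIs scaled by the total of the library or gate) and 41.3 CPM of the Y-linked Ddx3y, whereas the other 3 libraries had 849, 1044 and 1158 CPM of Xist. Ddx3y in those 3 (i4F-Nes replicates 1 and 2, then CTR replicate 2) was at 0.865, 0.102 and 0.049 CPM. By these genes CTR replicate 1 was male and the other libraries female, so sex was not balanced between the groups. The part of sex in the differences between groups was not tested. Pairs of libraries shared 20 to 31 cell barcodes, 0.211% to 0.321% of the barcodes of one library of the pair. Cells were sorted into gates by marker genes, none of them a ribosomal protein gene. Genes kept out of the gates followed the names: the radial glia gate had 2255 to 2826 CPM of Vim, an intermediate filament of radial glia, against 35.9 to 80.8 CPM in the immature, upper-layer and deep-layer neuron gates. Inhba was at 37.0 to 78.3 CPM in the upper-layer gate and 2.53 to 7.79 CPM in the deep-layer gate, and Rprm was at 411.4 to 419.6 CPM in the deep-layer gate and 22.9 to 33.8 CPM in the upper-layer gate.

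Ribosomal protein mRNA made up a large share of each library and differed between cell types more than between the groups. Of all UMIs, 10.8% and 12.4% came from the 80 members in the i4F-Nes libraries, against 10.4% and 11.4% in the CTR libraries. The group means were 11.6 ± 1.13% in i4F-Nes and 10.9 ± 0.741% in CTR (SD, n = 2 each), and the groups overlapped. The direction depended on the weighting of cells: i4F-Nes minus CTR was 0.69 percentage points over pooled UMIs and -0.19 as a mean of the shares of single cells. The Wilson 95% interval was 10.787% to 10.798% in i4F-Nes replicate 1 and as narrow in the others, and it covers counting error only.

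Among the 6 gates in which the groups were tested, the intermediate progenitor and radial glia gates had the highest shares and the interneuron gate the lowest. Intermediate progenitors stood at 12.9% and 15.2% in i4F-Nes and 13.3% and 15.2% in CTR. Radial glia stood at 12.2% and 13.9% in i4F-Nes and 13.1% and 14.6% in CTR. Within each of the 4 libraries the intermediate progenitor share was the higher of the pair, but the libraries of both gates overlapped. Immature neurons, gated on Neurod1 and its companions, had 8.48% and 10.3% in i4F-Nes and 9.50% and 10.95% in CTR. The upper-layer gate had 7.93% and 9.64% in i4F-Nes against 8.51% and 10.47% in CTR, and the deep-layer gate 7.80% and 9.04% against 8.19% and 10.2%. Interneurons, which migrate into the cortex from the ventral forebrain, had 5.71% and 7.91% in i4F-Nes and 6.93% and 8.43% in CTR. Many cells of the interneuron gate fell under a share of 4%, as given below. The order of the gates without such cells is not reported here. Every library's share in the radial glia gate exceeded every library's share in the immature, upper-layer, deep-layer and interneuron gates.

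Outside the excitatory lineage, microglia and vascular cells had high shares too, unlike interneurons. Microglia, the resident macrophages of the brain, stood at 14.6% and 18.2% in i4F-Nes, from 23 and 39 cells, and at 17.8% and 19.2% in CTR, from 30 and 50 cells. The vascular gate had 14.6% in i4F-Nes replicate 2, and 13.2% and 13.8% in CTR; i4F-Nes replicate 1 held too few vascular cells for a value.

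A share above that of radial glia in the same libraries was found in cells gated on Cytl1, Lgals7, Anxa1 and related genes. This gate held 542 and 444 cells in i4F-Nes replicates 1 and 2, against 3 and 1 cells in CTR. Its markers were chosen from these data, so its size and its members' levels are described without a test. Member UMIs made up 17.6% and 20.5% of its UMIs in the i4F-Nes libraries, against 12.2% and 13.9% in radial glia of the same libraries. The gate's cells were also deep, with medians of 34531 and 25693 UMIs against 15042 and 14012 in radial glia. The part of this depth in the share was not tested. A second gate that was nearly confined to i4F-Nes libraries, built on Krt8, Crabp2 and the Ebf genes, held 193 and 284 cells there against 8 and 7 in CTR. Its share was 11.1% and 11.9%, against 8.48% and 10.3% in immature neurons of the same libraries. Tubb3, a neuronal tubulin kept out of the gates, was at 3122 and 3044 CPM in the Krt8 gate and at 555 and 189 CPM in the Cytl1 gate.

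**Figure D1:**
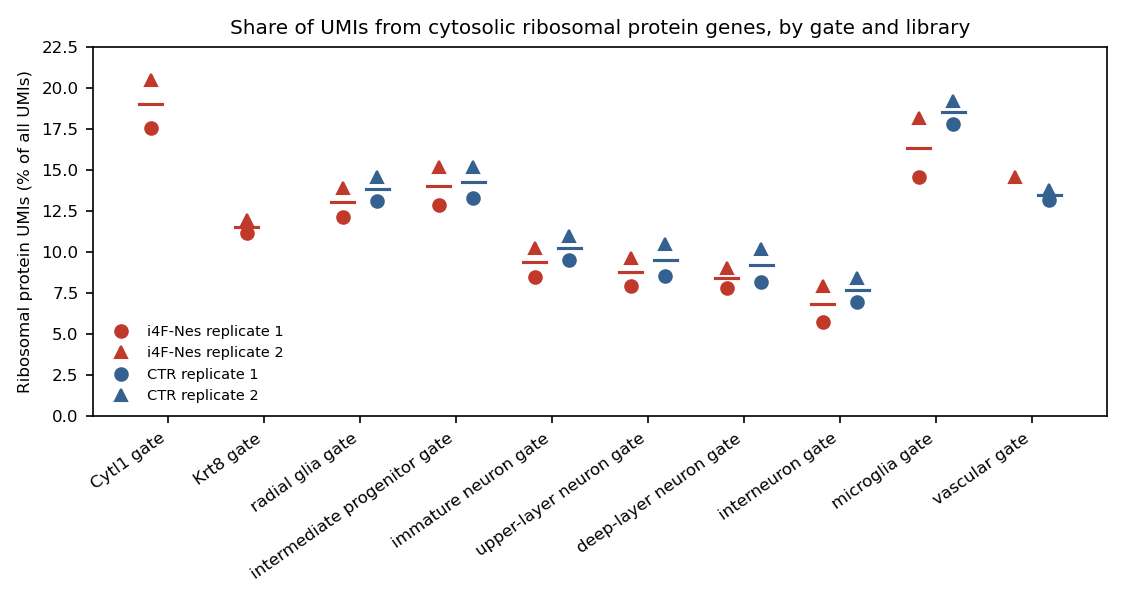
Share of UMIs from cytosolic ribosomal protein genes (percent of all UMIs of the gate, vertical axis) in each marker gate, with i4F-Nes left of CTR, circles for replicate 1, triangles for replicate 2 and bars at the mean of 2 libraries. The Cytl1 gate of the i4F-Nes libraries lies at 17.6% and 20.5%, radial glia at 12.2% to 14.6%, and upper-layer neurons at 7.93% to 10.47%; replicate 2 lies above replicate 1 of its group in the radial glia, progenitor and neuron gates.

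Dividing progenitors had lower shares than the other cells of their gate. In radial glia with at least 3 cell-cycle markers detected, the share was 11.4% and 13.3% in i4F-Nes and 12.7% and 14.0% in CTR. The remaining radial glia had 14.1% and 15.4% in i4F-Nes and 14.3% and 16.2% in CTR. The cycling cells were deeper in all 4 libraries, with medians of 16781 and 15849 UMIs in i4F-Nes and 19066 and 15144 in CTR, against 13135 and 11686 in i4F-Nes and 15201 and 11749 in CTR for the others. Cycling intermediate progenitors were likewise lower, at 11.9% and 14.7% in i4F-Nes and 12.5% and 13.8% in CTR, against 13.1% and 15.4% in i4F-Nes and 13.5% and 15.6% in CTR. Within gates the share moved with depth: the deeper radial glia of each library, those above its median, had 11.4% and 13.8% in i4F-Nes and 12.5% and 13.9% in CTR, against 14.0% and 14.1% in i4F-Nes and 14.7% and 16.0% in CTR for the shallower cells. In the deep-layer gate the order was turned, with 8.59% and 9.75% in i4F-Nes and 9.18% and 10.7% in CTR for deeper cells, against 6.27% and 6.67% in i4F-Nes and 5.74% and 8.97% in CTR for shallower ones.

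The distribution over single cells showed a second set of cells: the neuron gates held cells with very little ribosomal protein mRNA. The threshold of 4% used to count them was set after the distributions were seen. Below it lay 10.3% and 22.2% of kept cells from the i4F-Nes libraries, against 13.0% and 11.1% from the CTR libraries. In the deep-layer gate the percentages were 25.2% and 28.9% in i4F-Nes and 31.3% and 18.9% in CTR, and in the interneuron gate 56.9% and 50% in i4F-Nes and 62.8% and 37.0% in CTR. The upper-layer gate held 10.4% and 25.2% in i4F-Nes and 14.1% and 6.66% in CTR. Radial glia held fewer such cells, 2.82% and 10.2% in i4F-Nes and 1.92% and 3.57% in CTR, and the Cytl1 gate 0.369% and 0.676%. i4F-Nes replicate 2 had the highest percentage over all kept cells and in radial glia.

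Cells under the threshold, taken over all gates together, had fewer UMIs and a different RNA make-up. They were more frequent in the deep-layer and interneuron gates than in radial glia, so these values mix cell types. Their median depth was 8935 and 5248 UMIs in i4F-Nes and 9137 and 5058 in CTR, against 15807 and 13564 in i4F-Nes and 15947 and 12361 in CTR for the other cells. Mitochondrial RNA made up 4.46% and 5.11% of their UMIs in i4F-Nes and 4.18% and 4.66% in CTR, against 2.88% and 2.04% in i4F-Nes and 2.67% and 2.26% in CTR. Malat1, a long noncoding RNA held in the nucleus, made up 1.77% and 2.04% in i4F-Nes and 1.80% and 2.19% in CTR, against 0.785% and 0.933% in i4F-Nes and 0.837% and 1.04% in CTR.

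Other mRNAs were low in the same cells. The members' own direction is set by the threshold, and their median log2 difference between low-share and other cells was -2.21 and -3.24 in i4F-Nes and -2.19 and -2.63 in CTR. All 77 members with enough counts were lower, from -3.80 for Rpl32 in i4F-Nes replicate 2 to -1.56 for Rpl36al in i4F-Nes replicate 1. Of 20 elongation factors and other TOP mRNAs, 20 were lower in each library, with medians of -1.36 and -2.31 in i4F-Nes and -1.32 and -1.72 in CTR. Of 78 mitochondrial ribosomal proteins, which are encoded in the nucleus and serve another ribosome, 78 and 78 were lower in i4F-Nes and 78 and 77 in CTR, with medians of -1.101 and -2.16 in i4F-Nes and -1.18 and -1.59 in CTR. The 26 ribosome biogenesis genes moved less, with medians of -0.32 and -0.87 in i4F-Nes and -0.35 and -0.67 in CTR. The median over all genes measured was 0.07 and 0.08 in i4F-Nes and 0.08 and 0.15 in CTR. Haemoglobin RNA, from red blood cells, made up 0.00601% and 1.96% of their UMIs in i4F-Nes and 3.05% and 0.000574% in CTR. The contrasts of this paragraph also pooled all gates. The parts of RNA quality and of cell type in the RNA of the low-share cells were not tested. The comparisons of upper-layer and deep-layer neurons and of intermediate progenitors with radial glia, and the medians between groups, are given with and without them.

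**Figure D2:**
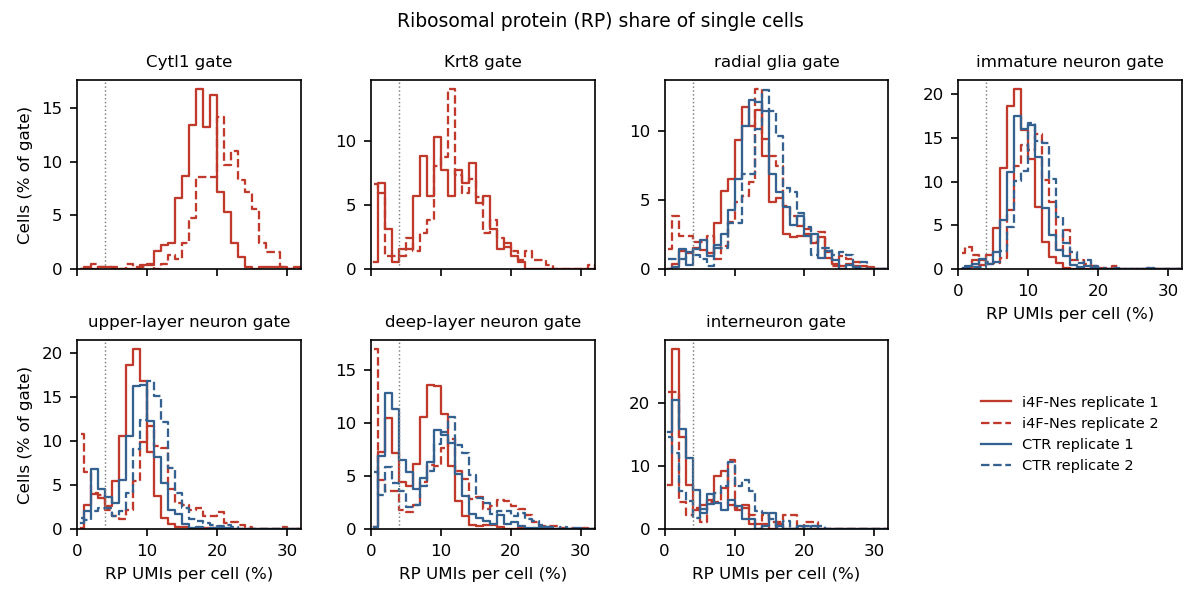
Distribution of the ribosomal protein share of single cells (percent of the cell's UMIs, horizontal axis, in steps of 1 percentage point) as a percentage of the cells of each gate (vertical axis), red for i4F-Nes, blue for CTR, solid for replicate 1 and dashed for replicate 2. Cells with a low share lie left of the dotted line at 4%, where deep-layer cells numbered 25.2% and 28.9% (i4F-Nes) against 31.3% and 18.9% (CTR).

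Upper-layer neurons were compared with radial glia over the 4 libraries, with the library as a block, in edgeR's quasi-likelihood test on UMIs summed per library and gate. Ribosomal protein mRNA was lower in neurons: 65 of the 77 members tested passed an adjusted p of 0.05 and were lower, none was higher, and the median log2 difference was -0.34. Many genes differ between a neuron and its progenitor, and 79% of the 14300 genes tested passed, 38.5% lower and 40.5% higher, with a median of 0.03. The middle 50% of members lay between -0.45 and -0.22, a narrow band beside -0.76 to 0.74 for all genes. The 3 members not tested, Rpl3l, Rpl10l and Rpl39l, had at most 5 UMIs in a library.

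The stalk, a flexible arm of the large subunit that recruits elongation factors, held the member with the lowest value. Rplp1 had 1004, 1383, 911 and 1515 CPM in upper-layer neurons of i4F-Nes replicates 1 and 2 and CTR replicates 1 and 2, against 1868, 2346, 1701 and 2390 CPM in radial glia of the same libraries. It fell by 0.80 on the log2 scale (SE 0.069, edgeR adjusted p = 1.12e-06), and all 4 neuron values lay below all 4 radial glia values. Rplp0, the stalk's base, had 1611, 1946, 1769 and 2264 CPM in neurons against 2846, 3012, 2989 and 3237 CPM in radial glia, a log2 difference of -0.68 (SE 0.072, edgeR adjusted p = 6.22e-06). Rplp2, which pairs with Rplp1, differed less, by -0.32 (SE 0.067, edgeR adjusted p = 0.00112).

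Several other members of both subunits fell as clearly. Rpl14, a 60S protein, had 620, 685, 568 and 729 CPM in upper-layer neurons against 1091, 1046, 1074 and 1124 CPM in radial glia, a log2 difference of -0.74 (SE 0.072, edgeR adjusted p = 3.21e-06). No neuron library reached the lowest radial glia library. The 40S protein Rps12 had a log2 difference of -0.69, Rps24 of -0.64 and Rpsa, also known as the laminin receptor precursor, of -0.65. Rpl5 and Rpl11, which carry the 5S rRNA and can bind the p53 regulator Mdm2 when free, fell only by 0.18 and 0.21 (edgeR adjusted p = 0.0305 and 0.012).

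A few members did not pass in either direction. Rps7, a 40S protein, had 1918, 2414, 1984 and 2810 CPM in upper-layer neurons against 1956, 2210, 1895 and 2282 CPM in radial glia. Rpl38, a small 60S protein whose loss in mice alters the axial skeleton, had 778, 910, 1141 and 954 CPM against 741, 864, 1120 and 787 CPM. Both sets of libraries overlapped. The log2 differences of 0.12 for Rps7 and 0.11 for Rpl38 did not pass (edgeR adjusted p = 0.159 and 0.146), and both turned negative, to -0.09 and -0.09, when libraries were scaled by total UMIs only. That scaling lowered the median of all genes to -0.18 and gave 75 of 77 members lower with a median of -0.54. Among all 14300 genes it gave 6677 lower and 4673 higher. Rpl10, which sits close to the site of peptide transfer, differed by -0.01 (edgeR adjusted p = 0.896).

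Deep-layer neurons gave a similar picture against the same radial glia. Of 77 members 67 were lower and 2 higher, with a median log2 difference of -0.40, where 80.4% of 14268 genes passed, 39.4% lower and 41% higher. The radial glia sums are shared with the comparison above, so its values stand beside it and are no repeat of it. Rplp1 differed by -0.88, Rpl14 by -0.87 and Rps24, a 40S protein mutated in Diamond-Blackfan anaemia in humans, by -0.82. Rps24 had 1395, 1837, 1566 and 2113 CPM in deep-layer neurons of i4F-Nes replicates 1 and 2 and CTR replicates 1 and 2, against 2702, 3227, 2795 and 3337 CPM in radial glia. The 2 members that were higher were Rps7 (log2 difference 0.20, SE 0.080, edgeR adjusted p = 0.038) and Rpl38 (0.20, SE 0.076, edgeR adjusted p = 0.0312), and both turned to -0.02 with scaling by total UMIs. Each also missed the threshold without i4F-Nes replicate 1 or without CTR replicate 2.

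Without the cells under 4% the deep-layer difference was smaller: 43 of 77 members were lower and 4 higher, and the median log2 difference was -0.20. Of all 14018 genes tested there, 5422 were lower and 5710 higher. The 4 higher members were Rps7, Rpl38, Rpl37 and Rpl10, named after their values were seen. In the upper-layer comparison 52 members were lower and 2 were higher, with a median of -0.26, where 5355 of 14030 genes were lower and 5653 higher. The share of UMIs differed between upper-layer neurons and radial glia by -3.84 percentage points without these cells and -4.30 with them.

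Intermediate progenitors, which arise from radial glia, had mostly higher members. Of 77 members 53 were higher and 6 lower than in radial glia, with a median log2 difference of 0.15, where 69.8% of 13747 genes passed, 35.1% higher and 34.7% lower. Rps28 had 1363, 1585, 2036 and 1567 CPM in intermediate progenitors of i4F-Nes replicates 1 and 2 and CTR replicates 1 and 2, against 1041, 1181, 1571 and 1170 CPM in radial glia. It rose by 0.40 on the log2 scale (SE 0.038, edgeR adjusted p = 4.29e-06), and each library showed the rise, although CTR replicate 1 was high in both gates. Rps27 and Rps9, also of the 40S subunit, both differed by 0.38, and Rps7 by 0.33. Rpl37 of the 60S subunit differed by 0.37. The 6 lower members were Rpl36al (-0.32), Rplp1 (-0.20), Rpl14 (-0.18), Rps2, Rpsa and Rpl41, and 5 of these 6, all but Rpl36al, had log2 differences between -0.80 and -0.55 in upper-layer neurons. With scaling by total UMIs 32 members were higher and 8 lower, where 4211 of 13747 genes were higher and 5398 lower. Without cells under 4% 52 members were higher and 6 lower, where 4879 of 13743 genes were higher and 4743 lower.

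**Figure D3:**
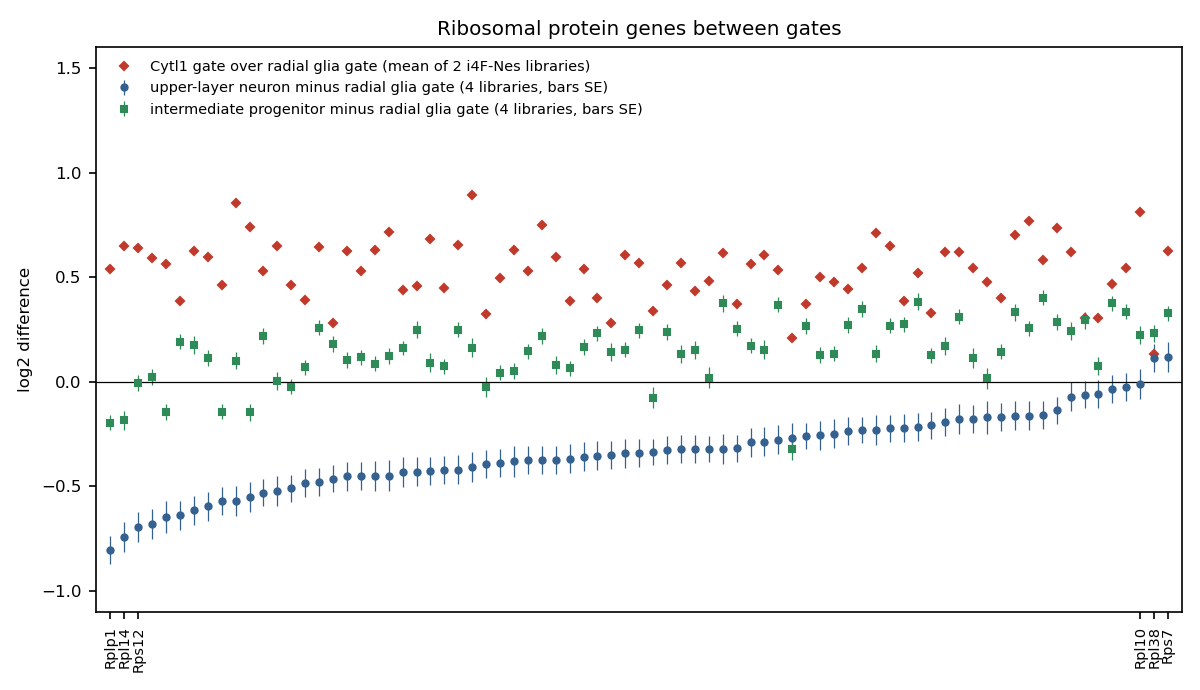
Log2 difference of each of the 77 tested ribosomal protein genes (horizontal axis, ordered by the upper-layer difference, with names at the 3 lowest and 3 highest) for the Cytl1 gate over radial glia (red diamonds, mean of 2 i4F-Nes libraries), upper-layer neurons minus radial glia (blue circles) and intermediate progenitors minus radial glia (green squares), with bars for the SE over 4 libraries. All red points lie above 0, 75 of 77 blue points lie below 0, and Rplp1 and Rpl14 at the left end are also below 0 in intermediate progenitors. Rps7 and Rpl38 at the right end fall below 0 in blue when libraries are scaled by total UMIs. Red points are scaled by total UMIs and blue and green points by edgeR's TMM, so distances between them are not like for like.

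Other genes of the translation machinery were read in the same fits. Of all genes tested there, 38.5% were lower and 40.5% higher in upper-layer neurons and 39.4% lower and 41% higher in deep-layer neurons. In intermediate progenitors 34.7% were lower and 35.1% higher. Against radial glia, 17 of 26 ribosome biogenesis genes were lower and 3 higher in upper-layer neurons (median -0.31), 20 lower and 2 higher in deep-layer neurons (median -0.50), and 19 lower and 1 higher in intermediate progenitors (median -0.40). In intermediate progenitors the biogenesis genes were thus mostly lower while the ribosomal protein genes were mostly higher. Nop58, a core protein of the particles that methylate rRNA, had 106, 113, 114 and 90.9 CPM in intermediate progenitors against 185, 178, 213 and 178 CPM in radial glia, a log2 difference of -0.83 (SE 0.060, edgeR adjusted p = 6.16e-07). Of 20 elongation factors and other TOP mRNAs, 12 were higher and 4 lower in intermediate progenitors, and 2 were higher and 9 lower in upper-layer neurons. Eef1b2, a subunit of the factor that reloads eEF1A with GTP, differed by 0.12 in intermediate progenitors and -0.39 in upper-layer neurons. Of 78 mitochondrial ribosomal proteins, 46 were lower and 12 higher in upper-layer neurons and 30 lower and 8 higher in intermediate progenitors. For intermediate progenitors the lower count lay near the share of all genes. Of the 11 regulators of TOP mRNAs, 7 were higher in upper-layer neurons and 1 was lower, Eif4ebp1, a repressor of cap-dependent translation named after its value was seen, with 1.28, 1.49, 1.1 and 1.31 CPM in neurons against 19.6, 20.9, 22.4 and 20.2 CPM in radial glia. The 16 nuclear and mitochondrial RNAs tested were listed to follow RNA quality. Of these, 15 were higher and 1 lower in each of the 3 comparisons with radial glia. Whether they followed RNA quality or cell type here was not tested. The part of RNA quality in the members' differences was not tested beyond leaving out the low-share cells.

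In the Cytl1 gate all 77 measured members were higher than in radial glia of the same i4F-Nes library, in both libraries. The median log2 ratio was 0.53 in replicate 1 and 0.55 in replicate 2, against -0.07 and -0.09 for all 9780 genes. At least 1.5-fold in both libraries were 22 members, and none was as much lower, where 11.6% of genes were higher and 14% lower by that fold. Rpl10a, a 60S protein, had 2618 and 2623 CPM in the Cytl1 gate of replicates 1 and 2, against 1450 and 1371 CPM in radial glia. Rps20, of the 40S head, had 3540 and 4886 CPM against 2074 and 2554 CPM, and Rpl10 had 1950 and 1975 CPM against 1137 and 1096 CPM. For these 3 members both Cytl1 values exceeded both radial glia values.

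The smallest ratios were those of Rpl38, at 896 and 978 CPM in the Cytl1 gate against 796 and 917 CPM in radial glia, of Rpl36al, at 458 and 575 CPM against 404 and 488 CPM, and of Rpl13a, at 1633 and 1456 CPM against 1359 and 1188 CPM. The stalk stood in the middle, with mean log2 ratios of 0.59 for Rplp0, 0.54 for Rplp1 and 0.57 for Rplp2. Rpl5 was at 0.55 and Rpl11 at 0.33. The TOP list had 5 of 20 genes higher by that fold (Eef2, Eef1b2, Eef1a1, Eif4b and Pabpc1, named after their values were seen) and none lower. Eef1a1, which brings aminoacyl-tRNA to the ribosome, had 8593 and 6988 CPM in the Cytl1 gate against 5205 and 3790 CPM in radial glia. None of 25 measured biogenesis genes was higher or lower by 1.5-fold in both libraries, and their medians were -0.21 and -0.14. The 78 mitochondrial ribosomal proteins had medians of 0.09 and 0.18.

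In the Krt8 gate the members stood higher than in immature neurons, though less evenly: 76 and 68 of 77 had positive log2 ratios in i4F-Nes replicates 1 and 2, with medians of 0.37 and 0.21. Only Rplp0 and Rps3 reached 1.5-fold in both libraries and none was as much lower, where 14.2% of 9307 genes were higher and 9.33% lower. Rplp0 had 3049 and 3151 CPM in the Krt8 gate against 1700 and 1909 CPM in immature neurons. Rps3, which lines the mRNA entry channel of the 40S subunit, had 1925 and 2107 CPM against 1156 and 1333 CPM. Rpl10a followed at mean log2 0.66, without reaching the fold in replicate 2. Among the lowest were Rpl38 at mean log2 -0.12 and Rpl7a at -0.04. Biogenesis genes stood lower, with medians of -0.44 and -0.47 over 23 measured genes, and Rrs1, Nop56 and Nop58, named after their values were seen, were lower by that fold in both libraries.

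Set against each other within the i4F-Nes libraries, the Cytl1 gate exceeded the Krt8 gate in 77 of 77 members in both libraries, with median log2 ratios of 0.61 and 0.71. By 1.5-fold in both, 44 members were higher and none lower, where 20.4% of 9998 genes were higher and 21.6% lower. Rps2, a 40S protein at the mRNA entry, had the largest ratio, with 3907 and 4395 CPM in the Cytl1 gate against 1424 and 1470 CPM in the Krt8 gate. Rpl3, at 2547 and 2913 CPM against 1187 and 1229 CPM, and Rpl12, at 1698 and 1599 CPM against 817 and 681 CPM, followed. Of 25 biogenesis genes 16 were higher and 1 lower here, with medians of 0.93 and 0.94.

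The groups were then compared gate by gate, i4F-Nes against CTR. No member passed the adjusted p of 0.05 over all kept cells or in the radial glia, intermediate progenitor, immature, upper-layer, deep-layer or interneuron gates. The edgeR test also gave no member at an unadjusted p under 0.05 in any of these 7 comparisons, and DESeq2 called none. Over all kept cells 2.28% of 18547 genes passed, and in each of the 6 gates 0% of the 9949 to 14286 genes tested. At an unadjusted p under 0.05 edgeR had 196 to 614 genes in a gate, and with DESeq2 3 to 28 genes passed in a gate. A change shared by all cells of a gate would have to exceed the spread between 2 libraries, and the median SE of a member's log2 difference was 0.17 over all kept cells and 0.19 to 0.24 in the gates.

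Over all kept cells the members' median log2 difference was 0.02, with 44 of 77 positive. Within gates it was -0.12 in radial glia, -0.05 in intermediate progenitors, -0.16 in immature neurons, -0.13 in upper-layer neurons, -0.15 in deep-layer neurons and -0.19 in interneurons, with 9, 20, 9, 7, 5 and 8 members positive. Without cells under 4% the median was 0.05 over all kept cells, -0.09 in radial glia, -0.03 in intermediate progenitors, -0.13 in immature neurons, -0.05 in upper-layer neurons, -0.12 in deep-layer neurons and -0.14 in interneurons, and no member passed. In upper-layer neurons 19 members were then positive, and the share difference was -0.28 percentage points, against -0.70 with all cells. In intermediate progenitors the share difference was -0.09 percentage points without these cells and -0.23 with them. The medians of all genes lay between -0.02 and 0.002. The whole-tissue value included the Cytl1 and Krt8 gates, and without their cells the members' median over the remaining cells was -0.16 with 5 of 77 positive, and no gene of the 18107 tested passed in edgeR, with 401 at an unadjusted p under 0.05. These medians moved with single libraries: leaving out 1 library at a time gave -0.12 (without i4F-Nes replicate 2) to 0.13 (without i4F-Nes replicate 1) over all kept cells, -0.31 (without CTR replicate 1) to 0.07 (without CTR replicate 2) in upper-layer neurons, and -0.33 to 0.06 in deep-layer neurons without the same 2 libraries. Without i4F-Nes replicate 2 and without i4F-Nes replicate 1 it was -0.24 and -3.83e-06 in radial glia, -0.32 and -0.01 in immature neurons and -0.48 and 0.05 in interneurons. In intermediate progenitors it was -0.20 without i4F-Nes replicate 2 and 0.10 without CTR replicate 2.

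The members at the ends of these comparisons were much the same in each gate and differed most often in CTR replicate 1. Rpl35, a 60S protein by the exit of the nascent chain, had 705 and 641 CPM in radial glia of i4F-Nes replicates 1 and 2, against 1101 and 643 CPM in CTR replicates 1 and 2. Its log2 difference was -0.37 (SE 0.255, edgeR adjusted p = 0.965), and the groups overlapped. Rps28 had 1061 and 1207 CPM in i4F-Nes against 1631 and 1211 CPM in CTR, and Rpl37 had 1074 and 1421 CPM against 1593 and 1459 CPM. At the other end, Rpl23a, which with Rpl35 borders the exit of the nascent chain, had 576 and 634 CPM in i4F-Nes against 453 and 646 CPM in CTR, a log2 difference of 0.14 (SE 0.21, edgeR adjusted p = 0.969). Rps15 had 768 and 895 CPM against 593 and 916 CPM, and Rpl13a 1333 and 1194 CPM against 939 and 1386 CPM. In 5 of these 6 members CTR replicate 1 was the library farthest from the others, and in Rpl37 it was i4F-Nes replicate 1.

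Rps28 was again at the low end in the other gates, with further members beside it. Rps28 had 773 and 946 CPM in upper-layer neurons of i4F-Nes against 1247 and 1008 CPM in CTR (log2 difference -0.39, SE 0.19, edgeR adjusted p = 1). Rps27 had 646 and 780 CPM in immature neurons of i4F-Nes against 967 and 844 CPM in CTR, Rps21 had 589 and 755 CPM in the deep-layer gate against 853 and 805 CPM, and Rpl36 had 503 and 757 CPM in the interneuron gate against 866 and 827 CPM. In these 4 cases both CTR values were the higher ones, and 0% of the genes tested in each gate passed the threshold. The members were picked for lying at the low end, and how many of all genes had both CTR values higher was not counted. Rpl5 had 884 and 859 CPM in intermediate progenitors of i4F-Nes against 573 and 893 CPM in CTR. Rpl38 (log2 difference -0.33) and Rpl35 (-0.30) were lowest over all kept cells, and Rpl12 (0.29), Rpl23a (0.28) and Rps12 (0.25) highest.

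The stalk members and Rpl11 were not among the 3 highest or lowest in any of these 7 comparisons, whereas Rpl5 was among the 3 highest in intermediate progenitors, immature neurons and deep-layer neurons. In radial glia Rpl5 had 826 and 779 CPM in i4F-Nes and 625 and 886 CPM in CTR. There Rplp0 had 2999 and 3212 CPM in i4F-Nes and 3232 and 3551 CPM in CTR, Rplp1 1968 and 2502 CPM and 1839 and 2622 CPM, and Rplp2 921 and 1254 CPM and 1038 and 1266 CPM. Rpl11 had 1998 and 2393 CPM in i4F-Nes and 2089 and 2607 CPM in CTR. Among the X-linked members, Rpl10 had 1116 and 1101 CPM in i4F-Nes against 1016 and 1255 CPM in CTR, Rps4x 2382 and 2501 CPM against 2391 and 2671 CPM, Rpl36a 597 and 759 CPM against 743 and 735 CPM, and Rpl39 1115 and 1404 CPM against 1573 and 1347 CPM. CTR replicate 1, the library without Xist, was the lowest for Rpl10 and the highest for Rpl39.

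**Figure D4:**
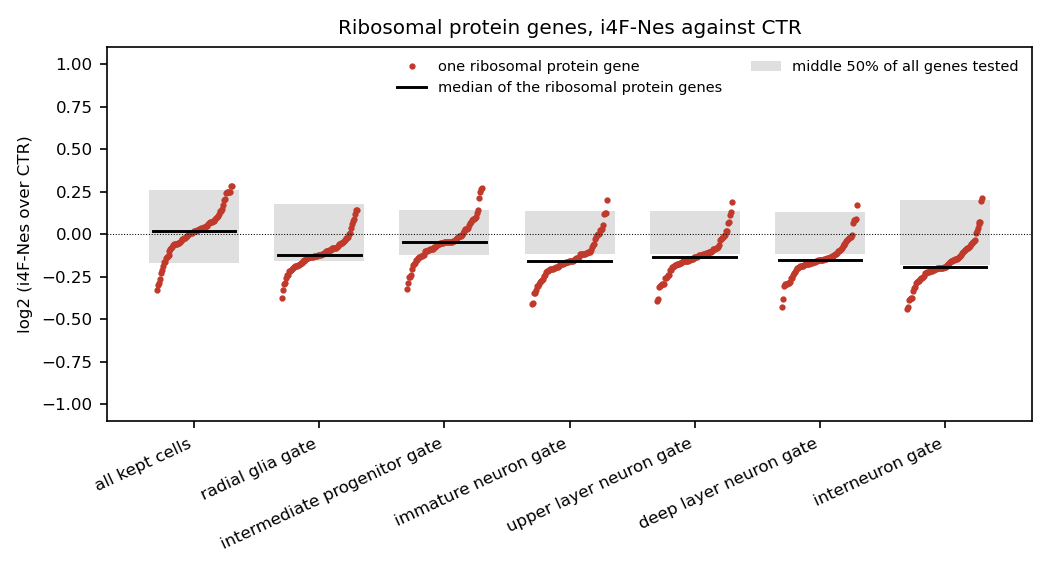
Log2 difference of i4F-Nes over CTR (vertical axis) for each of the 77 tested ribosomal protein genes (red points, in order of value), over all kept cells and in 6 gates, with the members' median as a black line and the middle 50% of all genes tested as a grey band. The medians run from -0.19 in interneurons to 0.02 over all kept cells, and no point passed an adjusted p of 0.05.

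The response was also compared between gates. The difference between the i4F-Nes effect in upper-layer neurons and that in radial glia ran from -0.16 (Rps4x) to 0.09 (Rpl36al) over the 77 members, with a median of -0.06 against -0.03 for all genes. This median was -0.17 without CTR replicate 1, with 0 members positive, and 0.09 without CTR replicate 2, with 75 positive, and it was -0.01 without cells under 4%. The edgeR test called no member and no other gene of 15184 (0%), with 722 genes and no member at an unadjusted p under 0.05, and DESeq2 called none. Rps14 at -0.14, Rps27 at -0.14, Rpl14 at 0.07 and Rpl23a at 0.04 were the next ones at either end.

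No gene of the related lists passed between the groups in any of the 6 gates with the edgeR test. Over all kept cells no gene of the biogenesis, TOP, regulator or mitochondrial ribosomal protein lists passed either. The biogenesis median was -0.20 in radial glia and 0.06 in intermediate progenitors.

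Members differed in level within the tissue. The 3′ kit counts 1 end per molecule, so CPM does not scale with transcript length, but capture may differ between genes, and mRNA copies elsewhere in the genome could draw reads from a member. Among the members with the highest mean CPM over the 4 libraries were Rpl13 (2909), Rps24 (2435), Rplp0 (2414), Rps7 (2386), Rps27a (2316), Rpl23 (2264), Rpl32 (2173) and Rpl15 (2124). Rps27a is made as a fusion with ubiquitin. The lowest tested member was Rpl36al (367), and Rpl31 (432) and Rpl23a (503) stood next.

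Paralogs caught by the name rule split sharply. Rpl3l, a striated-muscle relative of Rpl3, had 4 and 1 UMIs in i4F-Nes and 0 and 0 in CTR, against 179842 and 128820 UMIs of Rpl3 in i4F-Nes and 129290 and 120518 in CTR. Rpl39l, a testis-enriched relative of Rpl39, had 2 and 1 UMIs in i4F-Nes and 1 and 5 in CTR. Rpl10l, the autosomal retrogene of the X-linked Rpl10 used in male germ cells, had 0 UMIs in all 4 libraries. Rpl36al was the exception, with 321 and 418 CPM over all kept cells in i4F-Nes and 341 and 386 CPM in CTR, against 542 and 672 CPM in i4F-Nes and 579 and 560 CPM in CTR for Rpl36a, the X-linked gene it derives from. Reads of such close copies may be split between them. In intermediate progenitors against radial glia Rpl36al was lower (log2 difference -0.32, SE 0.051, edgeR adjusted p = 0.000207), and Rpl36a differed by 0.08 (SE 0.042, edgeR adjusted p = 0.108). The difference between both paralogs was not tested.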

How the data were processed

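The deposited files held whole-number counts of UMIs per gene and cell barcode, made by the authors with Cell Ranger 7.0.1, per the file headers, on mm10, per the submitters' processing notes. Cells with at least 1000 UMIs, at least 500 genes and at most 10% mitochondrial UMIs were kept, and the cells with the highest Scrublet scores (scanpy 1.11.5) were removed at 0.8% per 1000 barcodes, 2031 in all, leaving 26641 of 35255 barcodes and 385263330 UMIs. Cells were assigned in sequence to gates by counts of detected marker genes. UMIs were summed per library and gate and tested with edgeR 4.0.16 (TMM scaling, filterByExpr, robust quasi-likelihood test, Benjamini-Hochberg adjustment over all genes tested, threshold 0.05), with the library as a block between gates. CPM in fitted comparisons is TMM-scaled within each comparison; CPM of the Cytl1 and Krt8 gates, marker genes and paralogs over all kept cells is scaled by total UMIs only. The fits were first tested on simulated data. Members, lists and gate markers were chosen with earlier results of these data known. Text names the 10 most abundant members, the 3 highest and 3 lowest of each comparison, paralogs, stalk and 5S members, and others as stated; a few of these are not reported here. Replicate numbers were not taken to pair the libraries. A gate needed 20 cells in a library. Alternatives were DESeq2 1.42.0, other scalings and filters, a replicate block, stricter gates and leaving out each library.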

Additional observations from a re-analysis of the deposited data

How the results depend on the processing

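No member was called between i4F-Nes and CTR under any alternative run. The differences in UMI share between gates moved by more than 1 SD in 7 cases. Between the Krt8 and immature neuron gates the mean of per-cell shares gave 1.42 percentage points. Between upper-layer neurons and radial glia the difference was -3.93 without doublet removal, -4.69 as a mean of per-cell shares and -3.84 without cells under 4% (chosen after seeing the data). Between deep-layer neurons and radial glia it was -4.22, -5.09 and -3.46 under the same alternatives. Leaving out 1 library at a time turned the direction of the i4F-Nes minus CTR share difference, which ran from -0.11 to 1.49 percentage points over all kept cells, -1.70 to 0.04 in radial glia, -1.38 to 0.92 in intermediate progenitors, -1.75 to 0.03 in immature neurons, -1.69 to 0.28 in upper-layer neurons, -1.78 to 0.24 in deep-layer neurons and -1.97 to 0.23 in interneurons. Between gates these ranges kept their sign. As a mean of per-cell shares the difference over all kept cells was -0.19. With 1 library left out, members called against radial glia ran from 56 to 69 in upper-layer neurons, beside 10538 to 11058 genes called. In deep-layer neurons they ran from 57 to 71, beside 10720 to 11381 genes. In intermediate progenitors they ran from 44 to 65, beside 8464 to 9753 genes. These runs tested 13577 to 14594 genes. Over the other alternatives the upper-layer count ran from 54 (without cells under 4%, 11008 of 14030 genes) to 75 (scaling by total UMIs, 11350 of 14300 genes). Under the same alternatives the deep-layer count ran from 47 (11132 of 14018 genes) to 75 (11534 of 14268 genes). The intermediate progenitor count ran from 40 (scaling by total UMIs, 9609 of 13747 genes) to 66 (no filter on low counts, 10320 of 23073 genes).

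Single members turned as follows, and the cause was not tested. Rps12 over all kept cells was at -0.0067 without the Cytl1 and Krt8 gates. In upper-layer neurons minus radial glia Rpl10 was at 0.0637 with no filter on low counts and 0.0735 without cells under 4%, and with scaling by total UMIs Rpl38 was at -0.0936 and Rps7 at -0.0895. In deep-layer neurons minus radial glia Rpl37 was at 0.0572 with no filter, 0.0031 without doublet removal and 0.20 without cells under 4%, and with scaling by total UMIs Rpl38 was at -0.017 and Rps7 at -0.016.

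With 1 library left out, these log2 differences turned sign. Over all kept cells Rpl23a ran from -0.00961 to 0.66 and Rpl35 from -0.58 to 0.0956. In radial glia Rpl13a ran from -0.14 to 0.42, Rpl23a from -0.10 to 0.41, Rpl35 from -0.71 to 0.0585 and Rps15 from -0.15 to 0.48. In intermediate progenitors Rpl23a ran from -0.0183 to 0.62, Rpl35 from -0.60 to 0.0265, Rpl5 from -0.0358 to 0.61 and Rps15 from -0.0489 to 0.68. In immature neurons Rpl13a ran from -0.17 to 0.50, Rpl23a from -0.13 to 0.62 and Rpl5 from -0.17 to 0.49. In upper-layer neurons Rpl13a ran from -0.22 to 0.54, Rpl23a from -0.18 to 0.68 and Rps15 from -0.21 to 0.56. In deep-layer neurons Rpl23a ran from -0.20 to 0.68, Rpl5 from -0.23 to 0.49 and Rps15 from -0.28 to 0.58. In interneurons Rpl12 ran from -0.0591 to 0.50, Rpl23a from -0.39 to 0.76 and Rps15 from -0.22 to 0.78. For the difference of response Rpl14 ran from -0.079 to 0.25, Rpl23a from -0.16 to 0.28, Rpl36al from -0.0358 to 0.26, Rps14 from -0.24 to 0.00485 and Rps27 from -0.24 to 0.00471. For upper-layer neurons minus radial glia Rpl10 ran from -0.0665 to 0.0252. For deep-layer neurons minus radial glia Rpl37 ran from -0.0763 to 0.0286.

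Counts over all genes for i4F-Nes against CTR depended on the tool. Over all kept cells 423 genes passed in edgeR, 1146 in DESeq2, 808 with no filter and 584 to 782 with 1 library left out. The replicate numbers give only 2 pairs, and the deviations of same-numbered libraries correlated at 0.414 over 9394 genes and 0.0751 over members. With the replicate number as a block 0 members were called in each comparison. At an unadjusted p under 0.05 there were 4 members over all kept cells, beside 5007 of 18547 genes. There were 2 members in radial glia (2064 of 13337 genes) and 0 in intermediate progenitors (1403 of 14046 genes). Immature neurons had 15 (1813 of 13407 genes) and upper-layer neurons 26 (2423 of 14014 genes). Deep-layer neurons had 28 (2186 of 14286 genes) and interneurons 6 (586 of 9949 genes). At the adjusted p of 0.05, 1416 genes passed over all kept cells and 10 to 456 in the 6 gates, where edgeR without the block called none.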

Other observations

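Libraries differed in the profile of the members, whatever the gate. With each library set against the mean of the other libraries, the members' log2 differences spread most in CTR replicate 1. In radial glia their SD over the 77 members was 0.162 in i4F-Nes replicate 1, 0.121 in i4F-Nes replicate 2, 0.227 in CTR replicate 1 and 0.123 in CTR replicate 2. In upper-layer neurons it was 0.151 and 0.125 in the i4F-Nes libraries and 0.244 and 0.115 in the CTR libraries. CTR replicate 2 had the highest value of 70 of the 77 members in upper-layer neurons and of 63 in radial glia, whereas i4F-Nes replicate 1 had the lowest of 56 and 54.

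Cells in no gate differed in share between libraries, with 11.9% and 6.86% of UMIs from ribosomal protein genes in the i4F-Nes libraries, against 8.18% and 9.04% in the CTR libraries. Haemoglobin made up 0.00906% and 6.55% of these UMIs in the i4F-Nes libraries and 40.2% and 0.000753% in the CTR libraries, and its part in the share was not tested. Cells in no gate were shallow, with medians of 2436 and 2296 UMIs in i4F-Nes and 2204 and 2546 in CTR.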
